A study of Homo sapiens with 4 samples.

Results

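The genes of the first step of the cell cycle that D-type cyclins control were read on arrays of LN229 cells, an established glioblastoma line, with and without knockdown of *SOX2*. The 10 genes are the D cyclins *CCND1*, *CCND2* and *CCND3*, their kinases *CDK4* and *CDK6*, the kinase inhibitors *CDKN1B*, *CDKN1C*, *CDKN2A* and *CDKN2B*, and *MTAP*, which lies beside the last pair on chromosome 9. They were chosen by symbol from 20481 gene symbols on the arrays, and they have 15 probes. Averaging of probes that share a gene ID gave 11 features, since *CDK6* has 2 gene IDs. There were 4 arrays, 2 of cells given an siRNA without a target (mock) and 2 of cells given siRNA against *SOX2*. An siRNA is a short RNA that lowers the level of a matching transcript. All 4 samples came from this 1 line and all had been transfected, so the contrast leaves out any effect that transfection has on both groups. The knockdown was transient, and the methods describe the 2 replicates as separate transfections.

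D cyclins bind and activate CDK4 and CDK6, and these kinases phosphorylate the retinoblastoma protein RB1, which then releases E2F factors to switch on the genes of DNA replication. The INK4 proteins, p16 from *CDKN2A* and p15 from *CDKN2B*, bind CDK4 and CDK6 and block them, while p27 from *CDKN1B* and p57 from *CDKN1C* act mainly on the later CDK2 complexes. *CDKN2A* also encodes ARF, which inhibits the ubiquitin ligase MDM2. *MTAP* encodes the enzyme that recycles methylthioadenosine, a by-product of polyamine synthesis, towards methionine. In glioblastoma *CDKN2A* and *CDKN2B* are often deleted together with *MTAP*, and *CDK4*, *CDK6* or a D cyclin gene can be amplified.

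*SOX2* itself, the gene that was knocked down, gave signals of 0.454 and 0.682 in mock cells and 0.204 and 0.145 after knockdown. A signal here is relative to the 75th percentile of its array and is on a linear scale. Each knockdown signal was under each mock signal, and the ratio of the means was 0.308. The log2 difference was -1.69 (SE 0.28), with an adjusted p of 0.114 (limma, Benjamini-Hochberg over all features). Per array, 63.5% to 69.0% of gene probes exceeded a signal-to-noise ratio, S/N, of 3. The treatment field of the labels names a colon cancer line, SW620, while the other fields name LN229, so marker genes were read. Of 10 glioma line markers, 9 had S/N over 3 on all 4 arrays, and their summed signal was 162.2 and 192.5 in mock cells and 153.6 and 139.1 after knockdown. The tenth marker, *CHI3L1*, had S/N over 3 on no array. Of 10 colon epithelium markers, 3 (*CDH1*, *VIL1* and *ELF3*) had S/N over 3 on all arrays. *CDX1*, *CDX2* and *LGALS4* had it on 2 arrays, with both mock arrays among them for *CDX2* and *LGALS4*. *EPCAM* and *GPA33* had it on 1 array, and *KRT20* and *CDH17* on none. The summed colon signal was 14.3 and 49.6 in mock cells and 22.3 and 47.2 after knockdown, nearly all of it from *CDH1*, which encodes E-cadherin. It was high on the replicate 2 arrays of both groups and so did not follow the groups. Among 5 blood cell markers 2 exceeded S/N 3 on every array, with a summed signal of 0.296 to 0.413 on mock and 0.329 to 0.478 on knockdown arrays. The part of these signals in the results was not tested.

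For 9 of the 11 features S/N exceeded 3 on each array of either mock or knockdown cells, and these 9 were compared. They stand for 8 of the 10 genes, all but *CCND2* and *CDKN2B*. None of the 9 passed the 2-fold limit on the replicate means, which 2.38% of all 18378 features compared did (1.47% higher and 0.909% lower). At a limit of 1.5-fold 3 of the 9 passed (*CCND3*, *CDKN1C* and *CDK6* hCG19542.2), beside 9.86% of all features. Of these, *CDKN1C* and the *CDK6* feature lay near background. By limma 0 of the 9 had an adjusted p under 0.05, and the same test gave 0% over all features. At an adjusted p under 0.1 the count was also 0 of 9, beside 0.903% of all features. At an unadjusted p under 0.05 there were 5 of 9, of which 4 were higher and 1 was lower after knockdown, beside 17.2% of all features (8.12% higher and 9.07% lower). In 6 of 9 features the groups did not overlap, 5 of them higher and 1 lower, beside 47.2% of all features (21.6% higher and 25.7% lower). The median log2 difference of the 9 was 0.43, that of all features was 0.00, and the members ranged from -0.51 for *MTAP* to 0.65 for *CCND3*. This median is the value of *CDK6* hCG2027292, whose probes differed in direction. Both *CDK6* features are among the higher ones in the counts by unadjusted p and by overlap, and hCG19542.2 lay near background. Since each array measured a whole culture, fewer cells that express a gene and less RNA per cell cannot be told apart in any of these values.

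**Figure D1:**
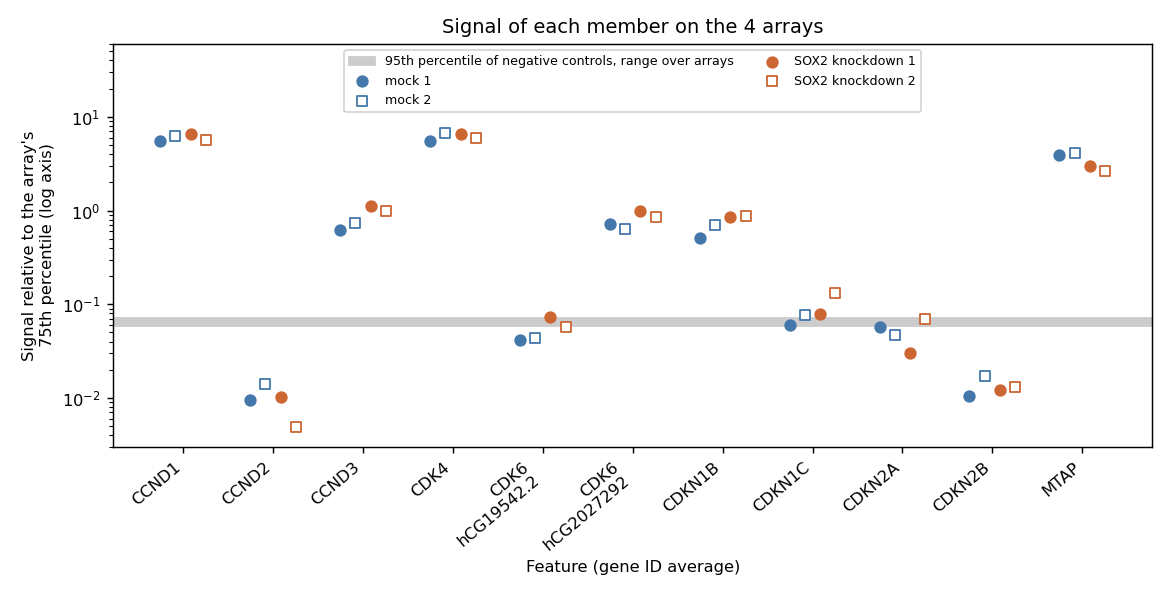
Signal of each of the 11 features on the 4 arrays, relative to the 75th percentile of the array (log axis), with blue marks for mock, orange marks for *SOX2* knockdown, filled circles for replicate 1 and open squares for replicate 2. The grey band spans the 95th percentile of the negative control spots over the arrays, 0.0583 to 0.0710. *CCND2* and *CDKN2B* lie below the band on all 4 arrays, and the orange marks of *CCND3* lie above its blue ones while those of *MTAP* lie below.

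Among the D cyclins the groups overlapped for *CCND1*, were apart for *CCND3* and were at background for *CCND2*. *CCND1*, the cyclin most often tied to growth factor signals, had signals of 5.50 and 6.19 in mock cells and 6.53 and 5.63 after knockdown. The groups overlapped, and the means were 5.85 ± 0.485 and 6.08 ± 0.635 (SD, n = 2 each). The ratio was 1.04, with a 95% interval from 0.786 to 1.37. Its 2 probes gave log2 differences of 0.051 and 0.047.

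*CCND3*, the cyclin with the broadest expression across tissues, had signals of 0.616 and 0.740 in mock cells and 1.12 and 1.0 after knockdown. Both knockdown arrays lay above both mock arrays, with S/N of at least 38.6 on every array. The means were 0.678 ± 0.0872 and 1.06 ± 0.0819 (SD, n = 2 each), a ratio of 1.56 with a 95% interval from 1.17 to 2.10. The log2 difference was 0.65 (SE 0.16), the largest upward value among the 9 features. By limma the adjusted p was 0.169, so the difference did not pass the test over all features.

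*CCND2*, the third D cyclin, was not above background on any array. Its signals were 0.00963 and 0.0141 in mock cells and 0.0101 and 0.0049 after knockdown, with S/N from -1.80 to 0.16. Between 26.0% and 41.8% of the 196 negative control spots of an array were at or above its signal. No fold is given for it, as both groups were at background.

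*CDK4*, the kinase partner whose gene is amplified in a share of gliomas, had signals of 5.50 and 6.71 in mock cells and 6.63 and 5.95 after knockdown. The groups overlapped, the ratio of the means was 1.03 with a 95% interval from 0.765 to 1.40, and the adjusted p by limma was 0.947. Its 2 probes gave log2 differences of 0.091 and 0.0028.

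*CDK6*, which shares most substrates of CDK4, was read by 3 probes under 2 gene IDs, all of them annotated to 1 transcript, and the probes differed in direction. Under hCG2027292 the signals were 0.717 and 0.639 in mock cells and 0.981 and 0.845 after knockdown. The groups did not overlap, and the log2 difference was 0.43 (SE 0.15) with an adjusted p of 0.268 by limma. With another background correction (normexp, offset 50) it was 0.18. This mean joins 2 probes of opposite direction. Probe 235779 gave 1.32 and 1.17 on mock and 1.91 and 1.62 on knockdown arrays, a log2 difference of 0.51 (SE 0.16). Probe 235937 gave 0.157 and 0.147 on mock and 0.104 and 0.111 on knockdown arrays, a log2 difference of -0.50 (SE 0.13). In each probe the groups were apart, and neither passed the test over all probes, with adjusted p of 0.233 and 0.188 by limma.

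The remaining *CDK6* probe, under hCG19542.2, was dim. Its signals were 0.0417 and 0.0439 in mock cells and 0.0738 and 0.0572 after knockdown. The knockdown arrays were the higher ones, and the log2 difference was 0.60 (SE 0.17) with an adjusted p of 0.210 by limma. On the mock arrays 8.67% and 10.2% of negative control spots were at or above this signal, and with normexp the difference turned to -0.25. So 2 of 3 *CDK6* probes were higher and 1 was lower, and no direction is given for the gene.

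**Figure D2:**
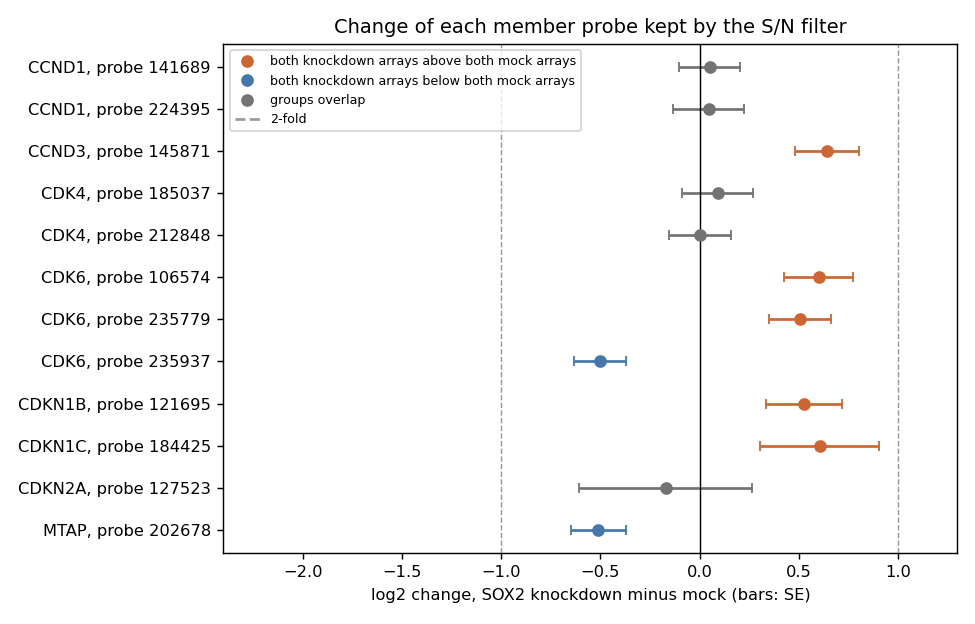
Log2 difference (*SOX2* knockdown minus mock) of each of the 12 member probes kept by the S/N filter, with bars for 1 SE. Orange and blue points have both knockdown arrays above or below both mock arrays, and grey points overlap. No point reaches the dashed 2-fold lines, and the *CDK6* probes lie on both sides of 0 at 0.60, 0.51 and -0.50.

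Of the inhibitors of the CIP/KIP family, none passed the test. *CDKN1B*, which encodes p27, had signals of 0.512 and 0.695 in mock cells and 0.851 and 0.871 after knockdown. The mock arrays differed from each other more than the knockdown arrays did, and the groups did not overlap. The ratio was 1.43 with a 95% interval from 1.01 to 2.05, and the log2 difference was 0.53 (SE 0.19) with an adjusted p of 0.277 by limma. Without the first mock array the log2 difference was 0.31.

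*CDKN1C*, which encodes p57 and is an imprinted gene, had signals of 0.0594 and 0.0764 in mock cells and 0.0796 and 0.132 after knockdown. The groups were narrowly apart, by 0.0764 against 0.0796, and the second knockdown array stood above the first. Its 95% interval for the ratio, 0.873 to 2.66, includes equal signals, and the adjusted p by limma was 0.412. Between 2.55% and 5.61% of negative control spots were at or above it, so it lay close to the upper end of background. The log2 difference of 0.61 (SE 0.30) became 0.24 without the second knockdown array and 1.13 with normexp.

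*CDKN1A*, the other CIP/KIP gene, which encodes p21, was read for comparison and had mean signals of 23.9 in mock cells and 25.7 after knockdown. The groups overlapped, with a log2 difference of 0.11 (SE 0.14) and an adjusted p of 0.810 by limma.

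*CDKN2A*, *CDKN2B* and *MTAP* lie next to each other on the short arm of chromosome 9. Of these genes 2 read at or near background while the third read far above it. The sequences before their starts are shown for reference, and any part of theirs in that difference was not tested. They are RefSeq sequences of build GRCh38.p14, each covering the 250 bases before a start, written 5′ to 3′ on the strand of the gene, and not reads of these cells. Capitals mark matches on either strand to ACAAT, the core that SOX proteins recognise, to TTTCGCGC or TTTGGCGC, E2F motifs, and to GGGCGG, the GC box that SP1 binds.
MTAP (chr9:21802386-21802635, plus strand): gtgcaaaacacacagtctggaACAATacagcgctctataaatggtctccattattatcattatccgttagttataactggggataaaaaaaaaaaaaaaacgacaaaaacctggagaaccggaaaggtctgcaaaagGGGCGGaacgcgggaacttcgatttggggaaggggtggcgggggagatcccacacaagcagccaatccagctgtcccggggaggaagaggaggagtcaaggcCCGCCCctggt
CDKN2A, p16 start (chr9:21974858-21975107, minus strand): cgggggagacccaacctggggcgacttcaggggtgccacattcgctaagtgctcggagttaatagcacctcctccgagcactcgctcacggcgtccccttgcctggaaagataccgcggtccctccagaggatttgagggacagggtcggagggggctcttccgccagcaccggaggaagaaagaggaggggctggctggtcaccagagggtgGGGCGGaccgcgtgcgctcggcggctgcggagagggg
CDKN2A, ARF start (chr9:21995325-21995574, minus strand): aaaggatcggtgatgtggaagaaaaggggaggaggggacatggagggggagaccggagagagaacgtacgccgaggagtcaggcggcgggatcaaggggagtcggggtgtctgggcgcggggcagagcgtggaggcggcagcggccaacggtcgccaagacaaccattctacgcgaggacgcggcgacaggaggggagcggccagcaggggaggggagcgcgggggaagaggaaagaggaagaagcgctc
CDKN2B (chr9:22009306-22009555, minus strand): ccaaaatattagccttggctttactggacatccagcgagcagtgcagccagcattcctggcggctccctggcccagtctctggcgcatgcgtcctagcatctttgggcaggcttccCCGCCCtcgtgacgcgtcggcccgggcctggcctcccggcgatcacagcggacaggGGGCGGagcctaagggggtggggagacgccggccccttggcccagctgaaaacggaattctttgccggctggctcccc
The *MTAP* window holds 1 ACAAT match and 2 GC boxes, and 11 CG pairs, the median of all windows. The *CDKN2A* windows hold 1 and 0 GC boxes with 20 and 24 CG pairs, and the *CDKN2B* window holds 2 GC boxes and 18 CG pairs. Of the 35116 promoter windows of the same length in the RefSeq table, 24.6% hold ACAAT, 0.968% hold an E2F match and 42.6% hold a GC box. Windows were found for 7 of the 10 genes, 11 windows in all. Of these, 3 hold ACAAT (*MTAP* and 1 window each of *CCND3* and *CDK6*) and 0 hold an E2F match. A match is a run of letters and not a measured binding site.

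*MTAP* was above background on every array, with S/N of 76.3 and 81.1 in mock cells and 51.2 and 104.2 after knockdown. Its signals were 3.90 and 4.07 on mock and 2.98 and 2.64 on knockdown arrays. Each knockdown value was under each mock value, which made *MTAP* the 1 feature of the 9 that was lower with the groups apart. The means were 3.98 ± 0.121 and 2.81 ± 0.243 (SD, n = 2 each), a ratio of 0.705 with a 95% interval from 0.548 to 0.903. The log2 difference was -0.51 (SE 0.13), and the adjusted p by limma was 0.189.

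*CDKN2A* had S/N of 6.92 and 7.05 in mock cells and 3.32 and 7.95 after knockdown, above the limit of 3 on all 4. Its signals were 0.0578 and 0.0467 on mock and 0.0304 and 0.0703 on knockdown arrays. The knockdown arrays held both the lowest and the highest value, so the groups overlapped, and the log2 difference was -0.17 (SE 0.44) with an adjusted p of 0.922 by limma. It was 0.44 without the first knockdown array and -0.77 without the second. An S/N over 3 did not set this gene apart from background, since 6.12% to 11.7% of negative control spots also passed that limit and 4.08% to 12.2% of them were at or above its signal. Its probe is annotated to the p16 and the ARF transcripts, which therefore cannot be told apart.

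*CDKN2B* had signals of 0.0104 and 0.0170 in mock cells and 0.0123 and 0.0131 after knockdown, with S/N from -0.54 to 0.495. Between 21.4% and 27.6% of negative control spots were at or above it. Of its 2 probes, 1 passed S/N 3 on the second knockdown array alone, with 3.06. No fold is given. A signal at background bounds the RNA that the probe can read and does not give the state of the gene in the genome.

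The genes on either side of the trio were read in RefSeq order. With the trio, 36 genes were listed, 35 were on the arrays and 19 passed the S/N filter. On the *MTAP* side the nearest gene on the arrays was *IFNA1*, an interferon gene whose S/N in mock cells was 11.6 and 12.9, though probes of near-identical interferon genes can share signal and this value is uncertain. On the *CDKN2B* side it was *DMRTA1*, which read 57.6 and 58.6 in S/N without the knockdown. Its signals of 0.774 and 0.786 on mock and 0.813 and 0.793 on knockdown arrays gave a log2 difference of 0.042. Farther out on the *CDKN2B* side, *ELAVL2* was not above background in mock cells (S/N 1.66 and -0.76). Beyond it, *TUSC1* had S/N of 61.1 and 83.8 in mock cells. Both genes were named after their values were seen. Over the 17 neighbours kept, 1 was higher at an unadjusted p under 0.05 (*HAUS6*, log2 difference 0.36, SE 0.12) and 2 were lower, beside 17.2% of all features in either direction, so the share was near that of all features. The lower ones were *MLLT3*, at -0.58 (SE 0.14), and *IFT74*, at -0.38 (SE 0.12). The median was -0.11, beside 0.00 over all features.

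**Figure D3:**
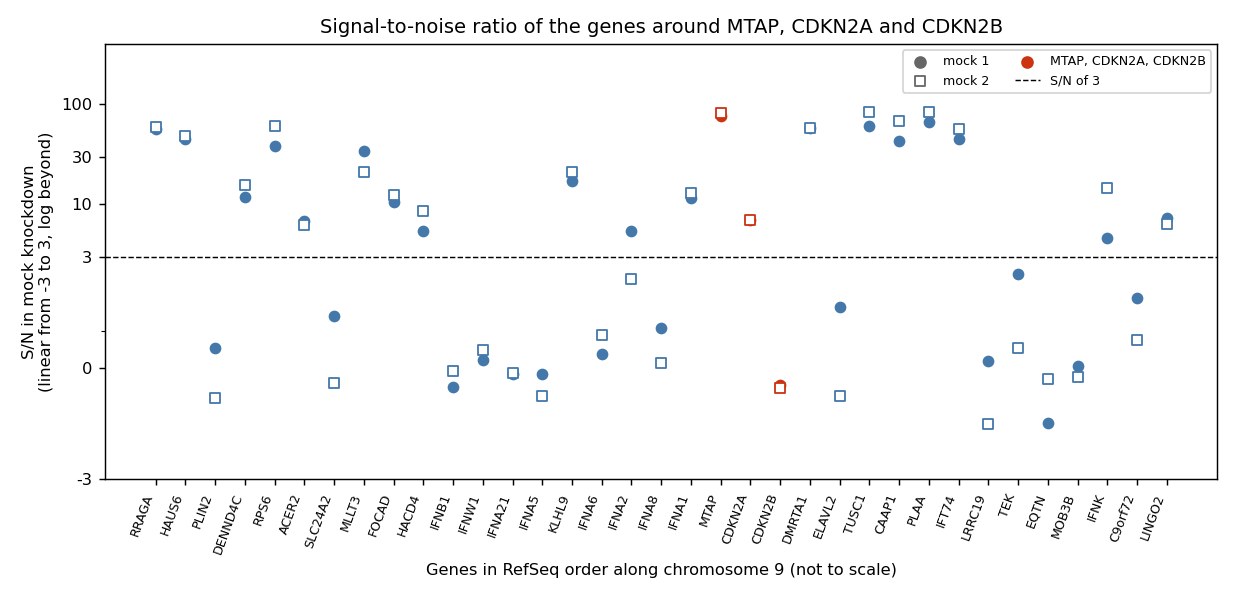
S/N on the 2 mock arrays (filled circles replicate 1, open squares replicate 2) of the 35 genes of the 9p21-p22 stretch that the arrays hold, in RefSeq order and not to scale, on an axis that is linear near 0 and logarithmic beyond. Red marks are *MTAP*, *CDKN2A* and *CDKN2B*. *MTAP* (76.3 and 81.1) and *DMRTA1* (57.6 and 58.6) lie far above the dashed line at 3, *CDKN2A* (6.92 and 7.05) lies just above it, and *CDKN2B* lies below 0.

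Of the 28 other genes listed for the G1/S step, 28 were on the arrays and 26 were kept. Of these, 19 were positive and 7 negative, and the median was 0.11. Over all features 49.7% were negative and the median was 0.00. *E2F7*, a repressor of E2F targets, was not above background on the mock arrays (S/N 1.14 and 2.53) and was above it on the knockdown arrays (4.93 and 4.46). Its mean signals were 0.0653 and 0.161. It was the 1 gene of the list past the 2-fold limit, but it was kept through the knockdown arrays alone, so the filter favours that call and nothing is read from it. The 19 positive values and the median of 0.11 include *E2F7* too. With S/N over 3 asked of all 4 arrays, or with normexp, 0 genes of the list passed.

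At an unadjusted p under 0.05, 4 of the 26 were higher and 1 was lower, beside 8.12% and 9.07% of all features. The 4 and the 26 include *E2F7*, so the filter favoured the count of higher genes and nothing is read from that count. Besides *E2F7*, the higher ones were *CCNA2*, the S-phase cyclin, at a log2 difference of 0.64 (SE 0.13), *CKS1B*, a CDK subunit needed to degrade p27, at 0.45 (SE 0.12), and *FBXW7*, a ubiquitin ligase subunit for cyclin E, at 0.42 (SE 0.12). *TFDP2*, a partner of the E2F factors, was lower by a log2 difference of -0.50 (SE 0.14). By limma 0 of the 26 had an adjusted p under 0.05. *RB1*, the main substrate of CDK4 and CDK6, had mean signals of 4.97 on mock and 4.99 on knockdown arrays and overlapped. Of the other INK4 inhibitors, *CDKN2C* was not above background, and *CDKN2D* had a log2 difference of 0.31 (SE 0.12) with an adjusted p of 0.323.

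All 20 listed genes that E2F factors are known to drive were kept, and 0 passed the 2-fold limit. At an unadjusted p under 0.05, 4 were higher and 0 lower, beside 8.12% and 9.07% of all features, while 0 had an adjusted p under 0.05 by limma. They were *ORC1* and *CDC6*, which mark replication origins, at log2 differences of 0.44 (SE 0.16) and 0.43 (SE 0.13), *BRCA1*, a repair gene, at 0.38 (SE 0.13), and *UHRF1*, which maintains DNA methylation, at 0.35 (SE 0.13). The list had 14 positive and 6 negative values and a median of 0.24, beside 49.7% negative and a median of 0.00 over all features. In 12 genes the groups were apart with knockdown higher and in 2 with knockdown lower, beside 21.6% and 25.7% of all features.

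On the ARF branch, *MDM4*, a relative of *MDM2*, had signals of 0.278 and 0.266 in mock cells and 0.395 and 0.378 after knockdown. The groups were apart, with a log2 difference of 0.51 (SE 0.12) and an adjusted p of 0.168 by limma. *MDM2*, the ligase that ARF inhibits, had a log2 difference of 0.22.

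The list for the methionine salvage and polyamine pathway of *MTAP* also held *PRMT5* and *WDR77*, which are not steps of it. Of its 12 listed genes, 9 were on the arrays and all 9 were kept. *APIP*, an enzyme downstream of MTAP, passed the 2-fold limit downwards. Its signals were 0.774 and 0.915 on mock and 0.418 and 0.391 on knockdown arrays, apart between the groups, with a log2 difference of -1.06 (SE 0.15) and an adjusted p of 0.101 by limma. The 2-fold call was lost without the second mock array and with normexp. *ODC1*, the first enzyme of polyamine synthesis, was higher, at 2.56 on each mock array and 4.38 and 4.42 on the knockdown arrays, a log2 difference of 0.78 (SE 0.12) with an adjusted p of 0.105 by limma. *PRMT5*, a methyltransferase that accumulating methylthioadenosine inhibits, and its partner *WDR77* had log2 differences of -0.0066 and 0.025. The median of the 9 was 0.025, which is the *WDR77* value, and 0 had an adjusted p under 0.05 by limma.

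**Figure D4:**
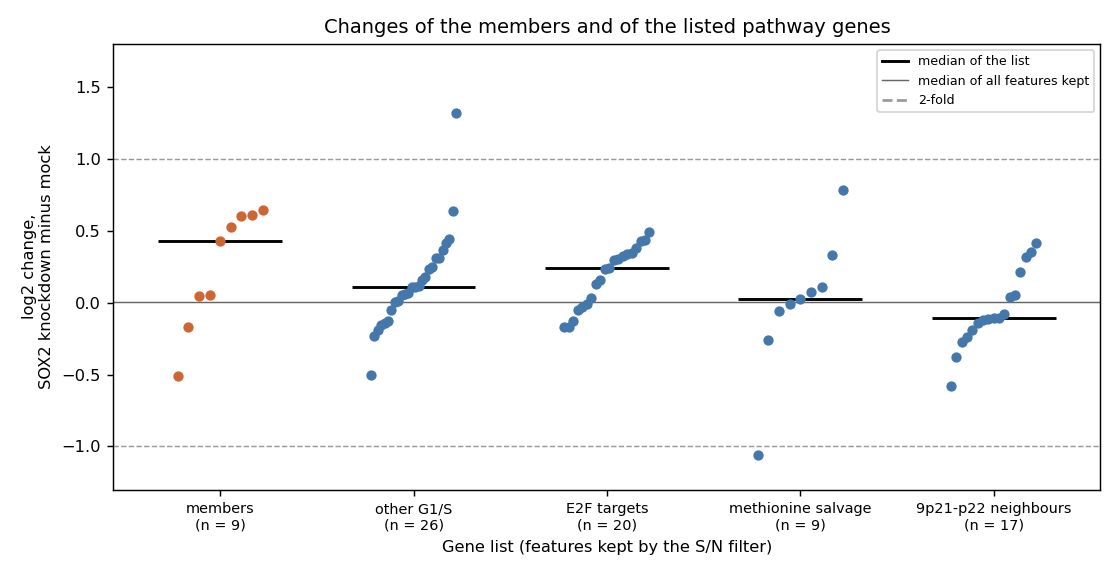
Log2 difference (*SOX2* knockdown minus mock) of each feature kept by the S/N filter in the members (n = 9) and in the listed other G1/S genes (n = 26), E2F targets (n = 20), methionine salvage genes (n = 9) and 9p21-p22 neighbours (n = 17), with black lines for the list medians of 0.43, 0.11, 0.24, 0.025 and -0.11 and dashed lines at 2-fold. Points past a dashed line are *E2F7*, which was not above background on the mock arrays, in the G1/S list and *APIP* in the salvage list. The salvage list also holds *PRMT5* and *WDR77*.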

How the data were processed

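RNA of 4 LN229 cultures was read on 1-colour chemiluminescent arrays of Applied Biosystems (Human Genome Survey). The deposited scanner files hold an intensity per probe that the authors' software had normalized, and a separate S/N score per probe in the deposited files. The authors' processed table holds a linear ratio per probe. What the flags mean and which software version set them is not given in the sources used here.

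Left out were 210 probes flagged at 5000 or above at least once. The remaining normalized signals and S/N were averaged by Celera gene ID (27739 features), divided by the 75th percentile of the array and floored at 0.01, and log2 was taken. The study's methods average raw intensities instead. Features whose S/N exceeded 3 on each array of either group were kept (18378). The 2-fold limit applied to linear replicate means. Two-sided limma (3.58.1, in R 4.3.3, no block) gave p-values, adjusted by Benjamini-Hochberg across the features kept, and 95% intervals come from that fit. The intervals for a ratio are therefore those of geometric means, while the ratios printed with them are of linear replicate means. Negative control spots served as background. The number of arrays limits the precision, and averaging probes can hide probes that disagree. The scripts were tested on simulated data.

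Groups came from the source names of the labels. The members and gene lists were chosen with earlier results of these data known. Named genes are *SOX2*, the members, listed genes past 2-fold or an unadjusted p under 0.05, the nearest 9p21 neighbours and genes said to be chosen otherwise. *CDKN1A*, *RB1*, *CDKN2C*, *CDKN2D*, *MDM2*, *PRMT5* and *WDR77* were added for their roles. Of 97 list entries outside the markers, 93 were found on the arrays through RefSeq symbols and synonyms (GRCh38.p14). Alternatives covered scaling, the authors' table, normexp on raw intensities, floors, filters, flags, single probes, a fold limit of 1.5, a variance trend, the replicate block and leaving out each array. A listed gene is not reported here.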

Additional observations from a re-analysis of the deposited data

How the results depend on the processing

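Of 18 alternatives per gene, *CCND3*, *CDKN1B*, *CDKN1C*, *CDK6* hCG2027292 and *MTAP* kept their direction in all that could be run. Some of the 18, such as the fold limit, the variance trend and the replicate block, cannot change a log2 difference, so their agreement was fixed beforehand. Single probes are not among the 18, and there the probes of *CDK6* hCG2027292 differed in direction (0.51 and -0.50). None of the members passed an adjusted p of 0.05 in any alternative with all 4 arrays. The lowest adjusted p (limma) was 0.0818 for *CCND3* and 0.0967 for *MTAP*, both with the crossed pairing. With normexp, *CDK6* hCG19542.2 turned to a log2 difference of -0.25 and *CDKN2A* to 0.032, and with a floor of 0.05 *CDKN2A* was 0.14. Leaving out each array gave log2 differences from -0.052 to 0.16 for *CCND1*, -0.096 to 0.19 for *CDK4* and -0.77 to 0.44 for *CDKN2A*. These 3 genes changed sign without the first knockdown array (-0.052, -0.030 and 0.44), and *CCND1* and *CDK4* also without the first mock array (-0.030 and -0.096). The cause was not tested. Without each array in turn *CDKN1C* ranged from 0.24 to 0.97 and *CDKN1B* from 0.31 to 0.75.

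A limit of 1.5-fold passed 3 member features (beside 9.86% of all features), 2 other G1/S genes and 2 methionine salvage genes. The member features past it include *CDKN1C* and *CDK6* hCG19542.2, which lay near background. The G1/S genes past it include *E2F7*, kept through the knockdown arrays alone. Past 2-fold, other G1/S genes numbered 0 with normexp and 0 where all 4 arrays had to exceed S/N 3. Methionine salvage genes past 2-fold numbered 0 with normexp and 0 to 1 when each array was left out (0 without the second mock array, where *APIP* no longer passed). With single probes the count was 2, which is of probes and not of genes. Neighbours kept numbered 32 without an S/N filter and 17 to 19 when each array was left out.

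Over all features, 0 had an adjusted p under 0.05 as reported, but 240 did with a variance trend, 669 with median scaling, 650 without further scaling, 639 in the authors' table and 3 where all arrays had to exceed S/N 3. With median scaling, no further scaling and the authors' table, every member had the same SE (0.283, 0.285 and 0.281). The replicate spread of each member thus did not enter the limma p there. Features past 2-fold numbered 441, 436 and 411 in these settings, beside 438 as reported. With the replicate number as a block, 0 members passed 2-fold and 0 the adjusted p. Same-numbered arrays deviated in opposite directions (r = -0.50 across 18378 features), and no label ties them to each other, so the numbers were not taken to pair the samples. What the arrays of a number share was not tested. A crossed pairing, added after the data were seen, also gave 0 calls among the members. With 2 arrays per group, *CCND2* and *CDKN2B* stayed within the range of the negative controls, which limits what can be read from them.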
